A study of Mus musculus with 22 samples.

Results

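A set of 10 antiviral genes that interferon switches on was followed in the hypothalamus of mice given bacterial lipopolysaccharide (LPS): Ifit1, Ifit2, Ifit3, Rsad2, Cmpk2, Isg15, Usp18, Oas2, Oasl1 and Oasl2. They were listed by symbol, with earlier results of these data known, and each gene was read from the probe sets that the array annotation assigned to its symbol alone. By that rule 9 of the 10 genes were measured, each by 1 probe set, among 19935 genes in all. The only probe set for Isg15 also lists the pseudogene Gm9706, so Isg15 has no value of its own and that probe set is described apart.

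The animals were male C57bl6 mice deficient in interleukin-6 (IL-6 KO) and wild-type (WT) littermates of the same parents, 9 to 12 weeks old, which received LPS from Escherichia coli at 120 µg/kg or saline as 1 intraperitoneal injection. Tissue was taken 3 h later, after perfusion with saline, and 200 ng of its RNA was hybridised to 1 Affymetrix array per sample. There were 7 KO LPS, 7 WT LPS, 4 KO saline and 4 WT saline arrays. The labels do not say which part of Il6 was altered, nor whether any arrays shared a mouse, so the tests weigh differences against the array-to-array spread, which may be technical. The study asked which hypothalamic genes depend on IL-6 when LPS causes fever.

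Interferon that reaches a cell binds its receptor, whose kinases JAK1 and TYK2 activate transcription factors of the STAT family, STAT2 among them. STAT2 joins IRF9 in a complex that binds a short DNA motif near the start of many antiviral genes. LPS can start the same programme through its receptor TLR4 and the adaptor TRIF, which lead to the making of interferon beta. IL-6 signals through a different receptor chain and mainly through STAT3. The products of the IFIT genes bind foreign RNA and block its translation. Viperin, the product of Rsad2, makes a chain-terminating nucleotide, and Cmpk2, its neighbour in the genome, encodes a mitochondrial nucleotide kinase. ISG15 is a small protein that is attached to others like ubiquitin. USP18 removes it and also restrains the interferon receptor. OAS enzymes bind double-stranded RNA and then make short adenylate chains. In the mouse, Oasl1 is known to limit the translation of Irf7, and Oasl2 encodes a relative of the OAS enzymes with ubiquitin-like domains.

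Promoter sequences are shown for the 4 genes in which the core of the interferon response motif was found. The relation of the motif to the expression values below was not tested. The motif GAAANNGAAA was searched on both strands, counting overlapping matches. Each window held the 250 bases before a transcription start taken from RefSeq (GRCm38.p6), which was not always the first base of the annotated gene. It was present in 978 of 32851 windows (2.98%), or 936 of 27025 genes (3.46%). Of the 10 genes, 8 had a window and 4 held the motif; Usp18 and Oas2 were not matched. Each sequence is printed 5′ to 3′ along the gene's own strand, with the matches in capitals, which appear as the reverse complement in Ifit1, Ifit3 and Rsad2. The stretches lie at chr19:34640755-34640843 (plus strand) for Ifit1, chr19:34583343-34583446 (plus strand) for Ifit3, chr12:26456533-26456602 (minus strand) for Rsad2 and chr4:156200845-156200926 (minus strand) for Isg15.
Ifit1: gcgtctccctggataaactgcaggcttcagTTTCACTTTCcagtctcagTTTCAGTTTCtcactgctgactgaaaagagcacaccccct
Ifit3: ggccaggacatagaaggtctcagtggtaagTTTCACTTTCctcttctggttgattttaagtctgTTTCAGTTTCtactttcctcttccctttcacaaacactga
Rsad2: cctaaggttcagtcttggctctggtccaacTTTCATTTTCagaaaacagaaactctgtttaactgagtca
Isg15: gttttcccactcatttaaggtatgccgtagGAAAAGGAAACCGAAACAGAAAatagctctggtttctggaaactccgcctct

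Ifit1 and Ifit3 held 2 matches each, at 104 to 76 and 156 to 113 bases before the start. Rsad2 held 1, at 120 to 111 bases, and Isg15 held 3 that overlap, at 78 to 57 bases. The start used for Ifit3 lies inside the annotated gene. These letters were not in the windows of Ifit2, Cmpk2, Oasl1 or Oasl2. Those windows run past the first base of the annotated gene, so the bases before it were not searched in full. For Cmpk2, for example, the window ends at chr12:26469214 and the gene begins at 26469117. A match describes the sequence and shows no binding.

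All expression values are log2 differences from the gene's median over the 22 arrays. The deposited table was centred in this way, so it holds no expression level, and the labelled tissue could not be checked on the levels of its markers. As 14 of the 22 arrays were LPS arrays, an LPS value lies near 0 and a saline value below it where a gene is higher after LPS. The genes were compared with limma over all 22 arrays, and a gene was called at a Benjamini-Hochberg adjusted p under 0.05 over all 19935 genes. Il6 itself lay at 0.24 ± 0.20 on KO LPS arrays and 0.07 ± 0.14 on WT LPS arrays (SD, n = 7 each), so its probe set did not set the genotypes apart in the direction of the labels. Markers of neighbouring tissue were high on 4 arrays: the mean of 8 choroid plexus genes was 1.064 on WT saline replicate 1 and 0.374 on WT LPS replicate 5, and the mean of 7 pituitary genes was 1.050 on KO LPS replicate 3 and 1.205 on KO saline replicate 2. These 4 were chosen without a set cut-off. KO LPS replicate 4, with a choroid plexus mean of 0.287, was not among them. Arrays numbered 1 to 11 and 12 to 22 in the labels differed in 4286 of 19935 genes in a fit with the groups, but in 0 of the 9 antiviral genes, where the smallest adjusted p was 0.162 (Oasl2). What the array number stands for is not given. Arrays 1 to 11 held 2 KO LPS, 5 WT LPS, 1 KO saline and 3 WT saline arrays. Arrays 12 to 22 held 5 KO LPS, 2 WT LPS, 3 KO saline and 1 WT saline arrays. Genotype was thus partly mixed with array number.

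LPS raised 8 of the 9 measured genes in each genotype; Oas2 was the exception in both. Rsad2 had the largest increase of the 9, 11.1-fold in KO and 10.6-fold in WT, and ranked 2 among all 19935 genes in both genotypes. Ifit1, Ifit3 and Ifit2 followed at 3.08-fold to 6.49-fold, then Cmpk2 and Usp18 at 2.46-fold to 2.82-fold, and Oasl2 and Oasl1 at 1.57-fold to 1.99-fold. Over all genes, 1.08% were called higher after LPS in KO and 1.42% in WT. The median difference of the 9 genes was 1.43 in KO and 1.49 in WT on the log2 scale, against -0.01 over all genes in both genotypes. In bulk tissue, more RNA per cell and more cells of a type cannot be told apart.

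**Figure D1:**
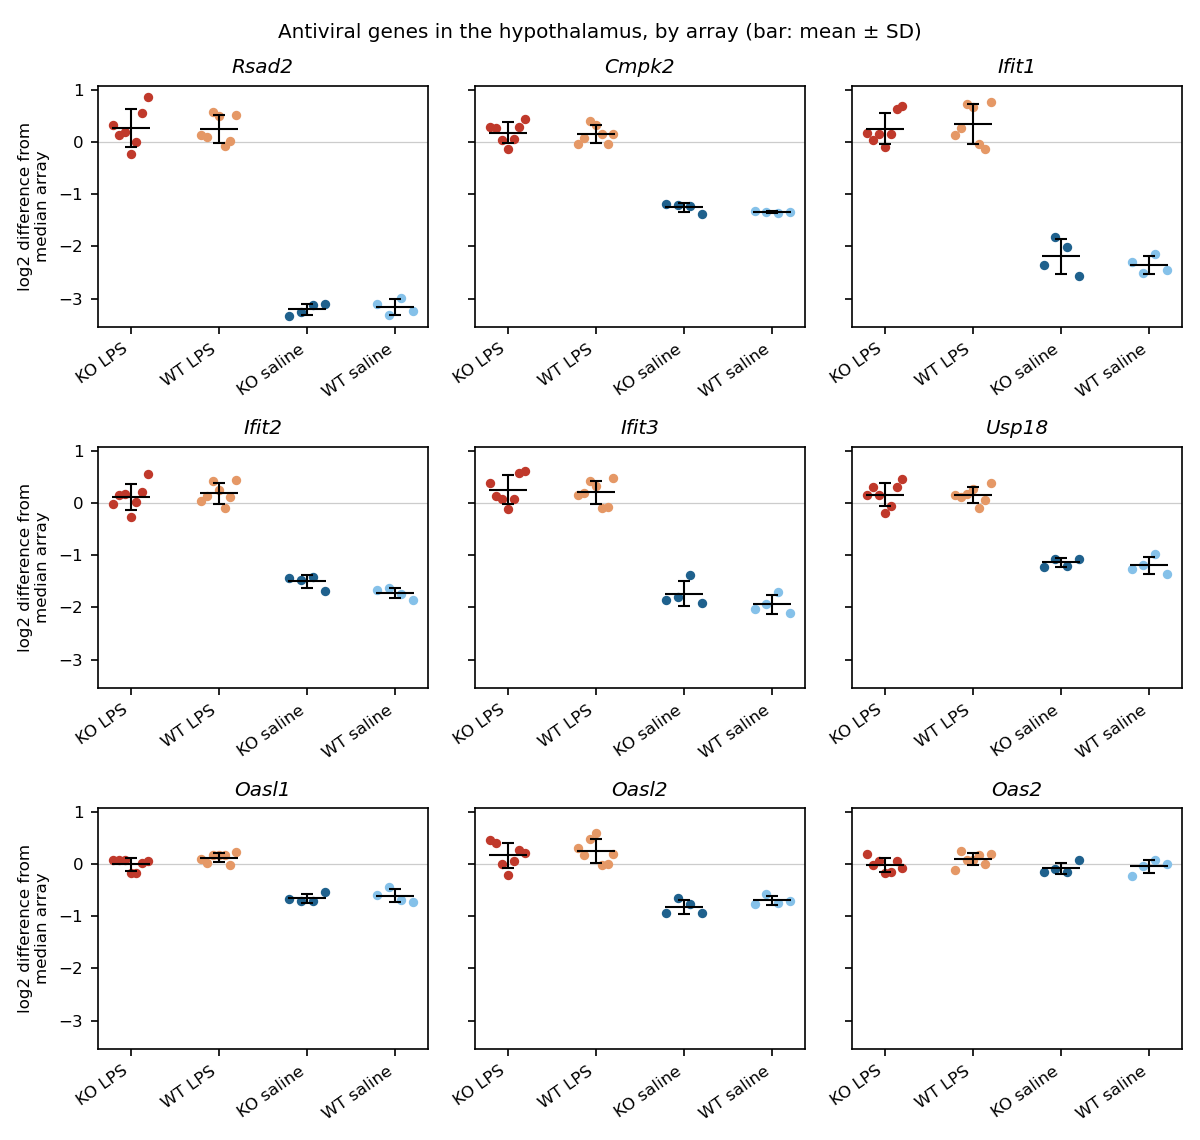
Value of each of the 9 measured genes on every array, as the log2 difference from the gene's median array (y axis), by group (x axis). Points are arrays and black bars the mean ± SD (n = 7 LPS and n = 4 saline arrays per genotype). The LPS and saline arrays of a genotype do not overlap in 8 genes and do in Oas2.

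Rsad2 lay between -0.227 and 0.862, with a median of 0.197, on the KO LPS arrays, against -3.329, -3.260, -3.132 and -3.103 on the KO saline arrays. In WT it lay between -0.078 and 0.582, with a median of 0.124, after LPS, against -3.101, -3.322, -2.982 and -3.231 after saline. The lowest LPS array exceeded the highest saline array by 2.876 in KO and 2.905 in WT. The difference between LPS and saline was 3.47 in KO (SE 0.15, adjusted p = 9.02e-14, limma) and 3.41 in WT (SE 0.15, adjusted p = 1.48e-13). Cmpk2, next to Rsad2 on chromosome 12, rose less. Its LPS values were -0.129 to 0.444 in KO (median 0.263), against -1.184, -1.211, -1.233 and -1.383 in KO after saline. In WT, Cmpk2 had -0.048 to 0.406 after LPS (median 0.148), against -1.328, -1.344, -1.367 and -1.346 after saline. These 4 WT saline arrays lay within an SD of 0.016 and were clear of all LPS arrays. The LPS difference of Cmpk2 was 1.43 in KO (SE 0.09, adjusted p = 1.04e-10, limma) and 1.49 in WT (SE 0.09, adjusted p = 4.09e-11).

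The 3 IFIT genes, which lie together on chromosome 19, rose in the order Ifit1, Ifit3, Ifit2 in both genotypes, and the 95% intervals of neighbours in this order overlapped. Ifit1 lay between -0.097 and 0.691 on KO LPS arrays (median 0.158), against -2.363, -1.813, -2.014 and -2.567 on KO saline arrays. On WT LPS arrays it lay between -0.130 and 0.759 (median 0.265), against -2.293, -2.516, -2.151 and -2.459 on WT saline arrays. The groups of a genotype were at least 1.715 apart, and Ifit1 had the largest SD of the 9 genes on KO saline arrays (0.340) and on WT LPS arrays (0.377). Its LPS difference was 2.44 in KO (SE 0.18, adjusted p = 1.54e-09, limma) and 2.70 in WT (SE 0.18, adjusted p = 1.88e-10).

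For Ifit3, KO arrays had -0.110 to 0.621 after LPS (median 0.142), against -1.855, -1.799, -1.378 and -1.910 after saline. WT arrays had -0.098 to 0.481 after LPS (median 0.194), against -2.026, -1.941, -1.704 and -2.110 after saline. Replicate 3 was the highest saline array in each genotype and still lay at least 1.268 below the lowest LPS array. The LPS difference of Ifit3 was 1.99 in KO (SE 0.14, adjusted p = 5.63e-10, limma) and 2.15 in WT (SE 0.14, adjusted p = 9.6e-11). Its close copy Ifit3b, read by another probe set, rose by 1.44 in KO and 1.20 in WT on the same scale. How far the probes of either gene also bind the other was not tested.

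Ifit2 ranged from -0.261 to 0.560 after LPS in KO (median 0.150), against -1.444, -1.473, -1.418 and -1.679 after saline. In WT, Ifit2 ranged from -0.098 to 0.443 after LPS (median 0.133), against -1.675, -1.627, -1.747 and -1.862 after saline. All LPS arrays were above all saline arrays, and 3 of the 4 KO saline arrays were above all 4 WT saline arrays. The LPS difference was 1.62 in KO (SE 0.11, adjusted p = 6.29e-10, limma) and 1.91 in WT (SE 0.11, adjusted p = 2.78e-11).

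Usp18, the negative regulator, had values of -0.195 to 0.463 on KO LPS arrays (median 0.155), against -1.218, -1.068, -1.200 and -1.065 on KO saline arrays. Its WT values were -0.097 to 0.379 after LPS (median 0.160), against -1.258, -1.189, -0.972 and -1.363 after saline. The gap between the treatments was 0.869 in KO and 0.875 in WT. Usp18 rose by 1.30 in KO (SE 0.10, adjusted p = 4.1e-09, limma) and by 1.35 in WT (SE 0.10, adjusted p = 1.71e-09).

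Oasl2 and Oasl1, neighbours on chromosome 5, rose least among the 8. Oasl2 lay between -0.211 and 0.467 on KO LPS arrays (median 0.205), against -0.946, -0.656, -0.775 and -0.936 on KO saline arrays. Its WT LPS arrays lay between -0.013 and 0.596 (median 0.184), against -0.762, -0.571, -0.749 and -0.713 on WT saline arrays. The treatments were 0.445 apart in KO and 0.559 in WT, and the LPS difference was 0.99 in KO (SE 0.12, adjusted p = 3.74e-06, limma) and 0.95 in WT (SE 0.12, adjusted p = 6.67e-06). Among arrays 12 to 22 alone, which hold 2 WT LPS arrays and 1 WT saline array, Oasl2 in WT was 0.81 higher after LPS (SE 0.17) with an adjusted p of 0.113; the lone saline array is assumed to vary like the other groups.

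Oasl1 had values of -0.181 to 0.078 after LPS in KO (median 0.059), against -0.677, -0.715, -0.707 and -0.528 after saline. Values in WT were -0.015 to 0.234 after LPS (median 0.164), against -0.588, -0.446, -0.691 and -0.722 after saline. Every LPS array was again above every saline array, by 0.347 in KO and 0.431 in WT. Oasl1 rose by 0.65 in KO (SE 0.06, adjusted p = 3.53e-07, limma) and by 0.73 in WT (SE 0.06, adjusted p = 4.35e-08).

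Oas2 was not called. It ranged from -0.182 to 0.192 on KO LPS arrays (median -0.014), against -0.159, -0.091, -0.148 and 0.072 on KO saline arrays. In WT it ranged from -0.114 to 0.241 after LPS (median 0.083), against -0.223, -0.034, 0.072 and -0.003 after saline. The treatments overlapped: 1 of 7 LPS arrays in KO and 5 of 7 in WT lay above all saline arrays of the genotype. The LPS difference was 0.06 in KO (95% interval -0.09 to 0.21, adjusted p = 0.9998, limma) and 0.14 in WT (95% interval -0.01 to 0.29, adjusted p = 0.875). An increase of its signal by more than 1.16-fold in KO or 1.23-fold in WT lies outside these intervals. With centred values it cannot be said whether the Oas2 probe set was above background on any array. The intervals therefore bound its signal and need not bound the change in Oas2 RNA.

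The probe set shared by Isg15 and Gm9706 was at -0.099 to 0.311 on KO LPS arrays (median 0.167), against -0.423, -0.162, -0.322 and -0.045 on KO saline arrays. On WT LPS arrays it was at -0.007 to 0.222 (median 0.138), against -0.393, -0.249, -0.086 and -0.284 on WT saline arrays. The treatments overlapped in KO, where 5 of 7 LPS arrays were above all saline arrays, and lay 0.080 apart in WT. In a fit that includes such shared probe sets, over 21327 genes, it was higher after LPS by 0.35 in KO (SE 0.08, adjusted p = 0.0206, limma) and by 0.39 in WT (SE 0.08, adjusted p = 0.00733). The signals of Isg15 and Gm9706 in it cannot be told apart.

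Every LPS array lay above every saline array of its genotype in 8 of the 9 genes in KO, where 1.21% of all genes did so, and in 8 of the 9 in WT, where 1.63% did. With the array block as a term, the same count of 8 genes was called in each genotype. Arrays 1 to 11 alone gave 8 in each genotype, although they hold 1 KO saline array, whose spread is then assumed to be that of the other groups. Arrays 12 to 22 alone gave 8 in KO and 7 in WT, where the same assumption holds for the single WT saline array. Without the 4 arrays with high choroid plexus or pituitary markers, 8 genes were called in each genotype. KO LPS replicate 4 stayed in that fit. The share of all genes called in these alternative fits is not reported here, so their counts have no background beside them.

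**Figure D2:**
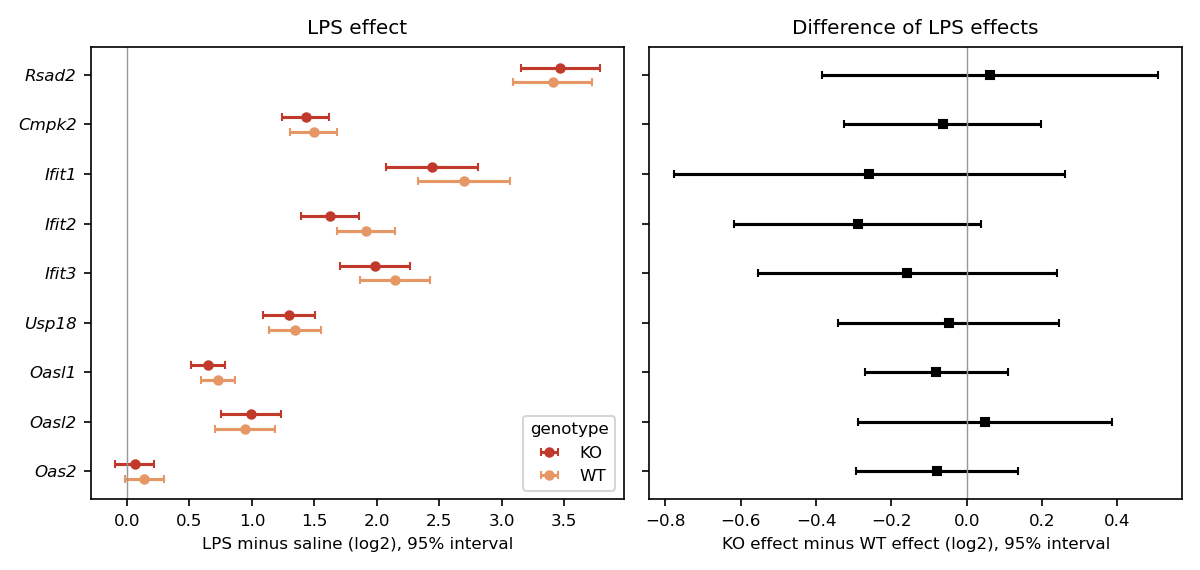
Left, difference between LPS and saline arrays (log2, x axis) of each gene in KO (red) and WT (orange); right, the KO difference minus the WT difference. Points are limma estimates and bars 95% intervals, over 22 arrays. All intervals on the left but those of Oas2 lie above 0, and all intervals on the right include 0.

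Between the genotypes, which were unevenly spread over the array numbers, none of the 9 genes was called after LPS, with or without the array block as a term. In KO against WT LPS arrays the differences ran from -0.13 (Oasl1) to 0.05 (Ifit3) on the log2 scale, with a median of -0.07. The call rate over all genes was 0.0401% (8 of 19935), so that a count of 0 of 9 is near the background, and 2267 of all genes but 1 of the 9, Oasl1, had an unadjusted p under 0.05. The arrays of the genotypes overlapped in all 9 genes, as the ranges above show. How many of all genes did so was not counted, so this overlap cannot be called a trait of the 9.

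The intervals bound what could have been missed. For Rsad2 the ratio of KO to WT after LPS was 1.01, with a 95% interval of 0.838 to 1.22. It was 0.938 for Ifit1 (0.755 to 1.17), 0.956 for Ifit2 (0.833 to 1.10) and 1.04 for Ifit3 (0.878 to 1.22). Cmpk2 had a ratio of 1.02 (0.914 to 1.14), Usp18 1.01 (0.891 to 1.14) and Oasl2 0.945 (0.821 to 1.09). The ratio of Oas2 was 0.924 (0.844 to 1.01). Oasl1, with 0.917 (0.847 to 0.993), was the one gene whose unadjusted interval did not include 1. Its adjusted p was 0.417 (limma), and its difference was -0.13 in all arrays, -0.10 with the array block as a term, -0.05 among arrays 1 to 11 and -0.15 among arrays 12 to 22.

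After saline, 0 of the 9 genes were called between KO and WT by limma, with 1 of 19935 genes called in all (0.00502%), and 0 of the 9 had an unadjusted p under 0.05, against 1030 of all genes. The IFIT genes had the largest differences, 0.22 for Ifit2 (95% interval -0.04 to 0.49), 0.21 for Ifit3 (-0.11 to 0.53) and 0.17 for Ifit1 (-0.25 to 0.58). The other 6 genes lay between -0.13 (Oasl2) and 0.09 (Cmpk2).

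The LPS effect was also set against itself in the 2 genotypes, as KO effect minus WT effect. None of the 9 genes was called (0% of all genes were), 0 had an unadjusted p under 0.05 against 327 of all genes, and every adjusted p was 0.999994 (limma). Ifit2 had the largest difference, -0.29, with a 95% interval of -0.62 to 0.04, followed by Ifit1 with -0.26 (-0.78 to 0.26) and Ifit3 with -0.16 (-0.55 to 0.24). Single saline arrays moved the last 2 values: Ifit1 was -0.13 without KO saline replicate 2 and -0.38 without KO saline replicate 4, and Ifit3 was -0.04 without KO saline replicate 3 and -0.24 without WT saline replicate 3. For Rsad2 the KO effect exceeded the WT effect by 0.06 (-0.38 to 0.51). The remaining 5 genes lay within -0.08 and 0.05. The interval of Ifit2 is wide enough to hold a fold change after LPS in KO that is 0.652 times the fold change in WT, or 1.03 times it.

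The 9 genes also varied among the arrays of 1 group. KO LPS replicate 4 was the lowest of its group in all 9 genes, with a mean over them of -0.177. KO LPS replicate 7 was the highest in 6 genes (mean 0.425), and replicate 6 lay above the group mean in all 9 (mean 0.323). Among the WT LPS arrays, replicates 3, 4 and 7 each lay above the group mean in 8 genes (means 0.385, 0.352 and 0.371), while replicate 5 was the lowest in 5 genes and replicate 6 in 3 (means 0.008 and -0.009). Some of these arrays also had the highest or lowest mean of their group for marker genes of other tissue and cells. KO LPS replicate 4 had the highest means of its group for choroid plexus (0.287), oligodendrocyte (0.262), endothelial (0.088) and astrocyte genes (0.063). It had the lowest mean for pituitary genes (-0.115). KO LPS replicate 6, high in the antiviral genes, had the lowest neuron mean of its group (-0.029). WT LPS replicate 5 had the highest choroid plexus mean of its group (0.374), while replicate 6, also low in the antiviral genes, had the lowest (-0.138). In WT the endothelial, oligodendrocyte and astrocyte lists ran the other way. Replicate 5 had the lowest mean for endothelial genes (-0.190) and replicate 6 for oligodendrocyte (-0.261) and astrocyte genes (-0.112). The WT neuron mean was highest on replicate 6 (0.093) and lowest on replicate 7 (-0.060). The WT microglia mean was lowest on replicate 7 (-0.124) and highest on replicate 3 (-0.009). WT LPS replicate 3, high in the antiviral genes, had the highest means for endothelial (-0.102) and oligodendrocyte genes (0.163). It had the lowest mean for hypothalamus genes (-0.143). WT LPS replicate 4, also high, had the lowest pituitary mean (-0.174), and replicate 5 the highest blood leukocyte mean (0.071). The part of the marker genes in the array-to-array pattern was not tested.

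**Figure D3:**
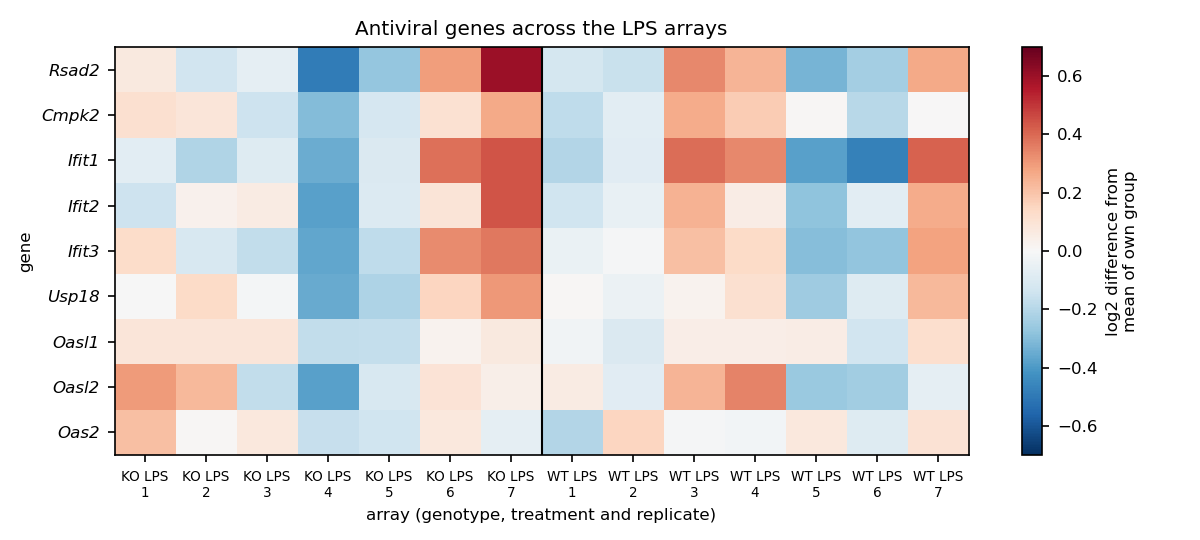
Each gene (rows) on each of the 14 LPS arrays (columns, KO left of WT), as the log2 difference from the mean of the array's own group; red is above the mean and blue below. KO LPS replicate 4 is below the mean in all 9 genes, and replicates 6 and 7 of KO and 3, 4 and 7 of WT are above it in at least 8.

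To measure this, each gene was taken as its difference from the own group mean over the 14 LPS arrays, and all 36 pairs of genes were correlated. Pearson's r was above 0 in all 36 pairs and ranged from 0.168 to 0.949, with a median of 0.663; Spearman's rho ranged from 0.165 to 0.943. Two-sided permutation tests used 100000 permutations within groups. After Benjamini-Hochberg adjustment over the 36 pairs, 22 passed 0.05 by r and 18 by rho. The share of pairs of other genes that would pass on these arrays was not tested. The closest pair was Ifit3 with Rsad2, at r = 0.949 (adjusted permutation p = 0.00018) and rho = 0.943 (adjusted permutation p = 0.00036), and r was 0.940 without the 2 arrays farthest from the median of Ifit3. Next came Ifit1 with Ifit3 (r = 0.928) and Ifit1 with Rsad2 (r = 0.920). The neighbours Rsad2 and Cmpk2 had r = 0.828 (adjusted permutation p = 0.00324) and rho = 0.749. Oasl1 and Oasl2, also neighbours, had r = 0.557 (adjusted permutation p = 0.0747) and rho = 0.354, which did not pass.

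Oas2 stood lowest here too. Its 8 pairs had r between 0.168 and 0.556 and none passed, whereas the 28 pairs of the other genes had r between 0.441 and 0.949; this grouping was made after the values were seen. All 36 values of r stayed above 0 without the 2 arrays farthest from the median of the first gene (0.118 to 0.940) and with deviations taken within array blocks (median 0.767, 21 pairs passed). KO LPS arrays alone gave a median r of 0.730, with 9 pairs passing, and WT LPS arrays alone 0.626, with 5 pairs passing and 1 pair below 0, at 7 arrays each. The count rests in part on 1 array: without KO LPS replicate 4, 14 pairs passed, the median r was 0.546 and the lowest -0.050.

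The 5 other genes whose array pattern was most like the mean of the 9 were taken from 19926 genes by Pearson's r over the same 14 LPS arrays. Gbp5, a guanylate-binding protein induced by interferons, came first with r = 0.966 (rho 0.974). Cxcl10, a chemokine induced by interferons, had r = 0.946 (rho 0.916). Cp, which encodes the copper carrier ceruloplasmin, had r = 0.934 (rho 0.916), the RNA sensor Ifih1 had 0.932 (rho 0.873) and Errfi1, an inhibitor of the EGF receptor, had 0.930 (rho 0.916). As they were selected for this likeness, no test is given. After LPS, Gbp5 was 3.13 higher in both genotypes, and Cxcl10 was 4.41 higher in KO and 4.88 higher in WT (log2). Cp had 0.82 in KO, with an adjusted p of 0.0723 (limma), and was called in WT, where it was 1.08 higher.

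The rest of the pathway was read from lists of its parts. At the head of it, 0 of 15 measured interferon genes were called in either genotype. Ifnb1, which encodes interferon beta, differed by 0.001 in KO and 0.004 in WT (SE 0.06, log2), and the 15 genes spanned -0.10 to 0.13 in KO and -0.20 to 0.12 in WT. With centred values it cannot be said whether these genes were above background on any array. The receptor chains Ifnar1 (-0.07 in KO, -0.10 in WT) and Ifnar2 (0.02 in KO, -0.05 in WT) were not called. Of 6 receptor genes, Il10rb alone passed the test: its value was -0.25 in KO, with an adjusted p of 0.201, and it fell by 0.33 in WT (SE 0.08, adjusted p = 0.0185, limma).

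Of the parts that carry the signal, 1 of 5 measured genes rose in KO and 2 of 5 in WT. Stat2 rose by 0.38 in KO and 0.43 in WT (SE 0.07 each). Irf9 had 0.23 in KO (adjusted p = 0.162, limma) and rose by 0.33 in WT (adjusted p = 0.00579); their difference was not called. Among 7 other interferon regulatory factors, Irf7, which amplifies interferon production, rose by 0.98 in KO and 0.91 in WT (SE 0.11 each), and Irf1 by 0.38 in KO and 0.34 in WT (SE 0.08 each).

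Of 15 genes of the TLR4 to TRIF branch and of nucleic acid sensing, 4 rose in KO and 6 in WT. The RNA sensors Ifih1 (1.27 in KO, 1.18 in WT) and Ddx58, which encodes RIG-I (1.05 in KO, 1.004 in WT), rose most, by the log2 difference. Cd14, which hands LPS to TLR4, rose by 0.40 in KO and 0.70 in WT (SE 0.10 each). Zbp1, a sensor of left-handed nucleic acid, had 0.31 in KO, with an adjusted p of 0.0568 (limma), and rose by 0.41 in WT.

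Around the antiviral genes themselves, 3 of 12 measured relatives rose in each genotype: Ifit3b, as above, Oas1a, an adenylate-chain synthetase (0.40 in KO, 0.38 in WT), and Oas1b (0.33 in KO, 0.39 in WT). The other 9 relatives were not called. Of 5 enzymes that attach ISG15 to proteins, 3 rose in each genotype: the ligase Herc6 (1.01 in KO, 1.23 in WT), Trim25 (0.48 in each) and the conjugating enzyme Ube2l6 (0.34 in KO, 0.51 in WT). Of 23 other antiviral effectors, 17 rose in KO and 18 in WT, led in WT by p by the GTPase Mx2 (1.32 in KO, 1.66 in WT), the nuclear body protein Sp100 (0.998 in KO, 1.07 in WT), Rtp4 (0.93 in KO, 1.21 in WT) and Parp9 (0.83 in KO, 0.95 in WT). Ifih1 is counted both there and among the sensors. In KO against WT LPS arrays, 0 genes of any of these lists were called (limma).

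**Figure D4:**
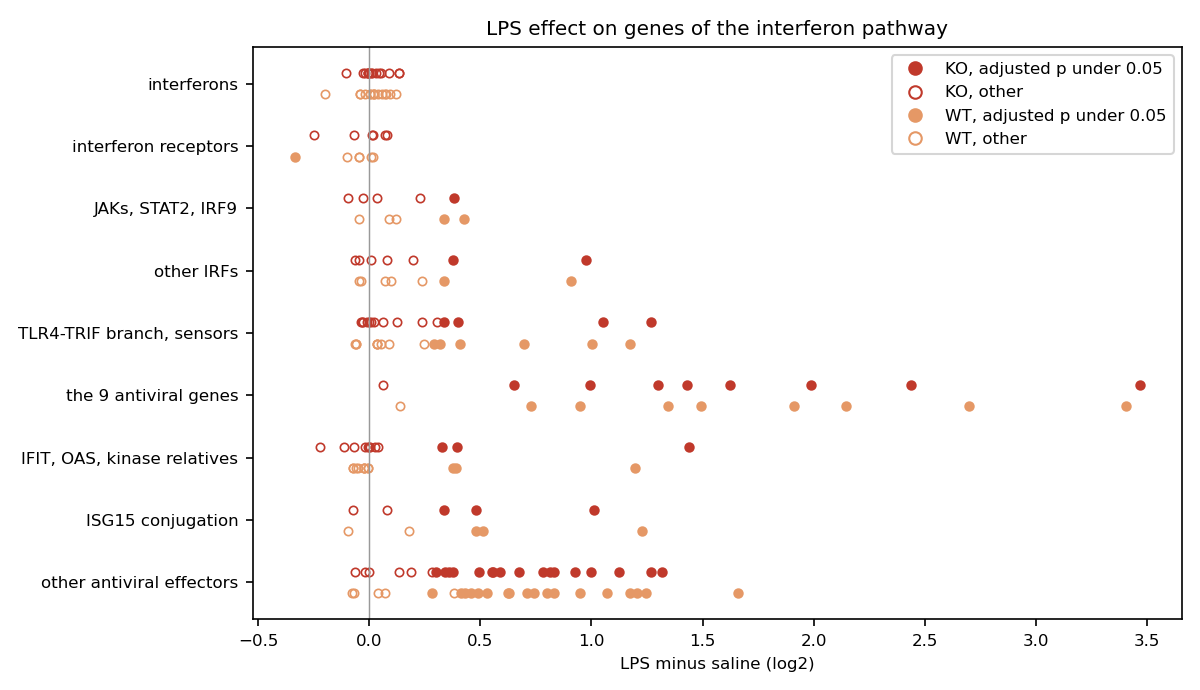
Difference between LPS and saline arrays (log2, x axis) for each measured gene of the pathway lists (rows), in KO (red) and WT (orange). Each point is a gene, filled where the adjusted p was under 0.05 (limma). Interferon genes lie near 0, while most effector genes and 8 of the 9 antiviral genes lie well to the right.

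Markers of the cells that the tissue holds were read in the same fit. Endothelial genes moved with LPS in the opposite direction: 7 of 11 fell in KO and 8 of 11 in WT, led by Slco1a4 (-1.08 in KO, -1.43 in WT) and Cldn5 (-1.08 in KO, -1.14 in WT). Over all genes, 0.256% were called lower after LPS in KO and 0.376% in WT. The mean of the 11 genes was -0.092 to 0.088 on KO LPS arrays and -0.190 to -0.102 on WT LPS arrays, against 0.259 to 0.429 on KO saline and 0.256 to 0.379 on WT saline arrays. Of 11 microglia genes, 0 were called in KO and 2 fell in WT, Cx3cr1 (-0.46) and Sall1 (-0.34). None of 11 blood leukocyte genes was called in either genotype, and their mean lay between -0.071 and 0.061 on KO LPS, -0.032 and 0.071 on WT LPS, -0.081 and 0.100 on KO saline and -0.014 and 0.057 on WT saline arrays. No astrocyte, neuron, oligodendrocyte, choroid plexus, pituitary or hypothalamus marker was called in either LPS comparison. The part of these shifts in the values of the antiviral genes was not tested.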

How the data were processed

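Hypothalamic RNA from 22 mouse samples was measured on Affymetrix arrays. The authors deposited values on a log scale, read here as log2, for 28815 probe sets, made with RMA (background correction, quantile normalization and probe summary), per the submitters' processing notes, with no version; the values show that each probe set was then centred on its median over the arrays (within 7.02e-07). The log base was not stated; it was taken as 2. The build and the annotation release behind the probe sets are not given in the sources used here.

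Symbols came from the platform annotation, updated through RefSeq (GRCm38.p6; 21689 of 21780 single-symbol probe sets matched). The 7035 probe sets with several symbols or none were left out and probe sets of 1 gene averaged, giving 19935 genes. Groups came from the labels, and replicate numbers follow deposition order. One mean per group was fitted with limma 3.58.1 in R 4.3.3 (lmFit, eBayes, two-sided), for 5 contrasts. Pairs were 36 because Isg15 had no value. The tests were tried on simulated data. Precision is limited by the number of arrays.

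The genes and lists were chosen with earlier results of these data known. The text names all 10 antiviral genes, up to 4 called genes per list with the smallest p in WT, Il6, the interferon axis genes Ifnb1, Ifnar1, Ifnar2, Stat2, Irf9 and Irf7, and the 5 genes most like the antiviral genes. Of the endothelial list only the first 2 examples are given. Some genes of the lists are not reported here. Alternatives covered the choice of probe sets, centring, array block, groups in the fit, array weights, robust moderation and left-out arrays.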

Additional observations from a re-analysis of the deposited data

Results flagged for a closer look

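The probe set that lists Isg15 together with Gm9706 lay outside the gene-level tests. It was higher after LPS than after saline by 0.354 in KO and by 0.385 in WT on the log2 scale. No outlying array was found in the 40 sets of 4 or 7 arrays tested, where chance gives about 1 in 20.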

How the results depend on the processing

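Across 32 alternatives (31 for the difference of the LPS effects) the number of the 9 genes called was 8 for LPS against saline in KO and in WT, and 0 in the other 3 comparisons, except that arrays 12 to 22 alone gave 7 in WT and that adding probe sets with several symbols gave 9 of 10 in each genotype. The share of all genes called in each alternative is not reported here. No paired analysis was possible because the labels give no shared replicate numbers. The relation between pairs, with 22 of 36 passing, had 9 in the KO LPS arrays alone and 5 in the WT LPS arrays alone, each with 7 arrays, and 14 to 24 when 1 LPS array was left out, an alternative chosen after seeing the data; its median r was then 0.546 to 0.711. All values that changed sign, below, were uncalled in both fits, and the cause was not tested.

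Log2 differences turned as follows. For LPS against saline in KO, Oas2 was -0.0089 in arrays 12 to 22. For KO against WT after LPS, Oasl2 was 0.1212 and Rsad2 -0.0136 in arrays 1 to 11, Usp18 was -0.0844 in arrays 12 to 22 and -0.0076 with array weights, and without the 4 arrays with high choroid plexus or pituitary genes Rsad2 was -0.0291 and Usp18 -0.0290. For KO against WT after saline, Ifit1 was -0.0434 and Usp18 -0.0789 in arrays 1 to 11, and Oasl1 was 0.0720 and Rsad2 0.0659 in arrays 12 to 22. For the difference of the LPS effects, Ifit3 was 0.0259, Oas2 0.0958, Oasl1 0.0561 and Usp18 0.1819 in arrays 1 to 11. In arrays 12 to 22 it was 0.0173 for Cmpk2 and -0.0519 for Rsad2. It was -0.0687 for Oasl2 with array weights, and -0.0194 for Rsad2 without the 4 arrays.

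Leaving out 1 array at a time, KO against WT after LPS spanned -0.0152 to 0.0803 for Cmpk2, -0.0092 to 0.1125 for Ifit3, -0.0857 to 0.0957 for Rsad2 and -0.0404 to 0.0693 for Usp18. After saline it spanned -0.0931 to 0.0051 for Oas2, -0.0878 to 0.0102 for Oasl1 and -0.1012 to 0.0118 for Rsad2. The difference of the LPS effects spanned -0.0018 to 0.1112 for Oasl2, -0.0386 to 0.1428 for Rsad2 and -0.1222 to 0.0116 for Usp18.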
